A study of Mus musculus with 6 samples.

Results

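The genes described here mark macrophages of adipose tissue, and they were followed in bulk RNA-seq of inguinal white adipose tissue (iWAT). The set held 39 genes (40 symbols, since *Adgre1* and *Emr1* name the same gene), chosen by name in 5 roles, namely pan-macrophage genes, resident-like genes, lipid-associated genes, lysosomal genes of tissue breakdown, and genes of uptake. The rule names genes and uses no difference between the groups, and where a symbol had several rows the one with the most counts stood for it. Of the 39, 31 had a row in the table of 37024 rows, 30 had at least 1 count, and 22 were among the 9872 rows that passed the filter on low counts and were tested. All 6 libraries came from C57BL/6 mice fed a Western diet for 12 weeks. The 3 libraries written AdWT came from mice homozygous for a floxed *Lexis* allele without Cre, and the 3 written AdKO from littermates that also carried Adipoq-cre. *Lexis* is a long noncoding RNA, and Adipoq-cre acts in adipocytes, so the macrophages of an AdKO mouse are expected to keep the gene. The sources used here gave neither the age nor the sex of the mice behind these libraries. The study reports by qRT-PCR that Cre ablated *Lexis* in adipose tissues. In these libraries the row of *Lexis* (*4930412L05Rik*) held few counts. It had 8, 9 and 8 under the label AdWT and 21, 11 and 13 under the label AdKO. The latter were not lower. AdWT and AdKO therefore stand for the labels of the libraries throughout.

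Macrophages take up dead cells, lipoproteins and iron, and degrade them in lysosomes. In lean fat most of them are resident cells that lie along vessels and carry scavenging receptors such as the mannose receptor *Mrc1* and the haemoglobin receptor *Cd163*. In obesity a further state gathers around dying adipocytes. These lipid-associated macrophages carry *Trem2*, whose signal runs through the adaptor *Tyrobp*, together with *Gpnmb*, *Cd9* and the integrin *Itgax* (CD11c), and are rich in genes of lysosomes and lipid handling.

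The total count per library was between 14470542 and 17882713, and a count of 0 allows up to 3 counts, or between 0.179 and 0.206 CPM (counts scaled to a common library total) after normalization, which covers counting error only. Levels below are TMM-normalized CPM. Many symbols had several rows, and such rows were often at 0, which was the case for 59.4% of the rows of symbols with 3 or more rows against 31.8% of those with a single row. The same held for the macrophage genes, of which 11 of 12 with a single row were tested (median total of 8672 counts) but only 11 of 19 with several rows (median total of 83 counts). A low value of a gene with several rows is therefore not read here as low expression. *Mrc1*, *Tyrobp*, *Lyz2*, *Fcer1g* and *Gpnmb* had at least 854 counts in every library, so the tissue carried macrophage RNA in every sample. In bulk tissue, fewer macrophages and less RNA per macrophage cannot be told apart.

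The libraries did not all stand alike. AdWT replicate 3 had the lowest level of the 6 libraries in 18 of the 22 tested macrophage genes, against 24.0% of all rows tested, and AdKO replicate 3 had the highest in 10 of 22, against 14.4% of all rows. Log2 fold changes that AdWT replicate 3 moved by more than 1.5 times are given with and without it for the genes described in most detail. No pair of libraries was a duplicate.

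Of the 22 tested macrophage genes, 16 had a higher and 6 a lower level under the label AdKO. Their median log2 fold change (AdKO over AdWT) was 0.40, against 0.01 over all rows tested. *Csf1r*, *Laptm5* and *Lgals3* passed the filter on more AdKO than AdWT libraries, and with a filter of at least 10 counts in every library, which leaves them out, 13 of 19 genes were higher and the median was 0.36. These counts describe the genes that passed and are no test. The split of 16 higher and 6 lower was the same under each of the other scalings tried (RLE, upper quartile and library size). None was called by the quasi-likelihood test of edgeR after Benjamini-Hochberg adjustment (smallest adjusted *P* = 0.851), as was the case for 0% of all rows tested, and DESeq2 called none of them either. At an unadjusted *P* under 0.05, 3 were higher (*Fcer1g*, *Cd9* and *Lgals3*) and 1 was lower (*Mertk*), while 2.76% of all rows were higher and 2.98% were lower at this threshold. With DESeq2 the counts were 4 higher (*Fcgr1*, *Fcer1g*, *Tyrobp* and *Cd9*) and 1 lower (*Mertk*), beside 1.01% and 1.41% of the 19526 rows in that fit. The groups did not overlap in 1 gene that was higher (*Lgals3*) and 1 that was lower (*Mertk*), against 6.16% and 5.72% of all rows. With 3 replicates against 3, an exact permutation test cannot go below *P* = 0.1. Without AdWT replicate 3 none of the 22 had an unadjusted *P* under 0.05, beside 2.13% of all rows higher and 2.77% lower, and the median log2 fold change was 0.14, whereas without AdWT replicate 1 there were 12 higher and 1 lower, with a median of 0.76, beside 7.20% of all rows higher and 4.64% lower.

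**Figure D1:**
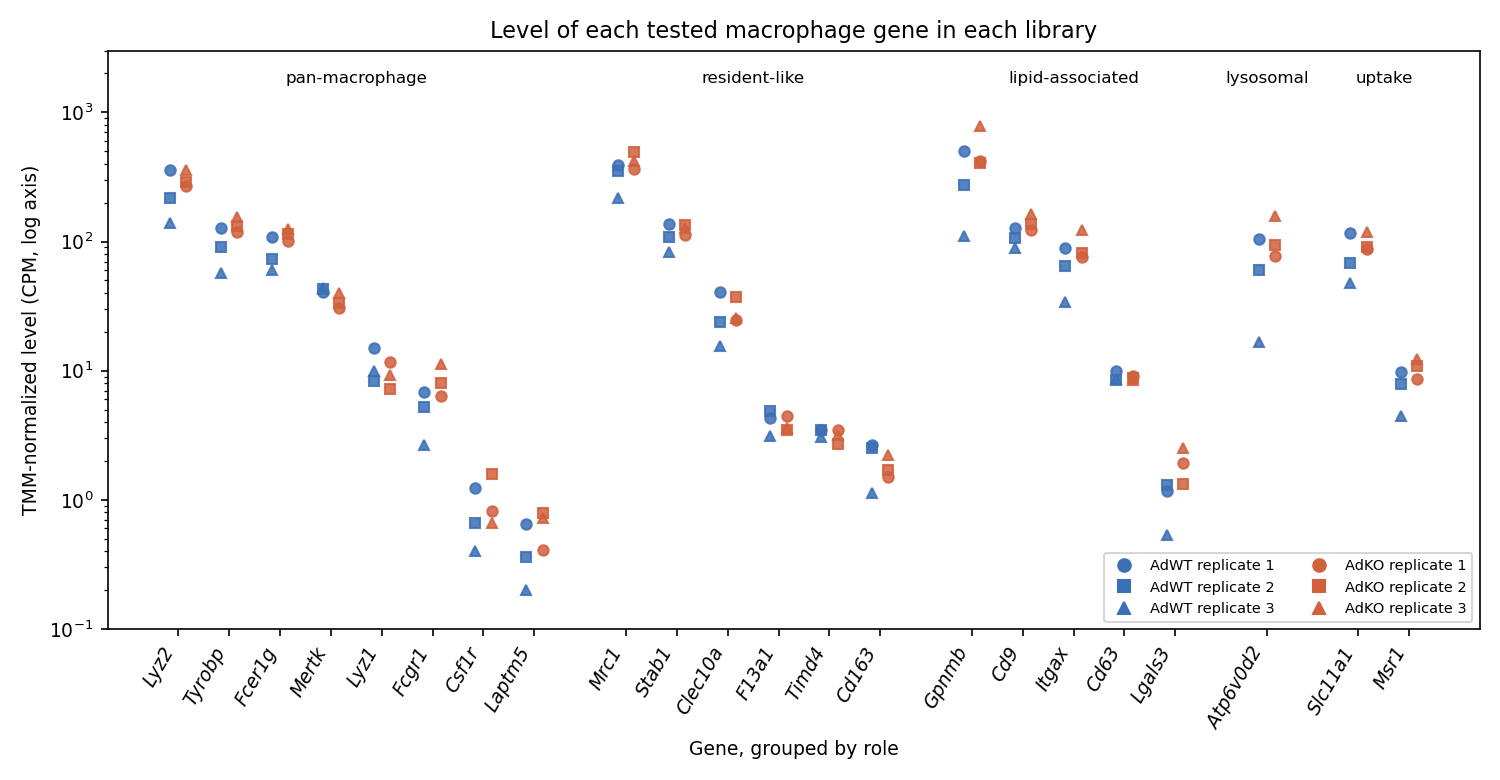
Level of each of the 22 tested macrophage genes in each library, as TMM-normalized CPM on a log axis, grouped by role. Blue marks AdWT, orange AdKO, and the shape gives the replicate number. The blue triangle, AdWT replicate 3, is the lowest point in 18 of 22 genes, and the orange triangle, AdKO replicate 3, the highest in 10.

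The pan-macrophage genes, which macrophages of every state share, were tested in 8 of 15 cases, and 6 of the 8, *Csf1r* and *Laptm5* among them, had a higher and 2 a lower level in AdKO (median log2 fold change 0.45). *Fcer1g* (chr1:173159703-173164496 of mm9, minus strand), the common gamma chain of activating Fc receptors, had 1666, 1230 and 898 counts in AdWT replicates 1 to 3 and 1478, 1733 and 2089 counts in AdKO replicates 1 to 3, or 80.7 ± 25.2 against 114 ± 11.9 CPM (SD, n = 3). Its AdKO libraries lay close together, and AdWT replicate 1 lay among them while the other AdWT libraries lay below. Its log2 fold change was 0.49 (standard error, SE, 0.21, unadjusted *P* = 0.0467 by edgeR's quasi-likelihood test), or 0.31 without AdWT replicate 3 and 0.77 without AdWT replicate 1.

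*Tyrobp* (chr7:31198807-31202596, plus strand) encodes DAP12, the adaptor through which TREM2 and several other receptors signal. Its levels were 128, 90.4 and 57.1 CPM in the AdWT libraries and 118, 132 and 156 CPM in the AdKO libraries, with AdWT replicate 1 again inside the AdKO range. A log2 fold change of 0.56 had a 95% interval from -0.06 to 1.18, and it was 0.30 without AdWT replicate 3 and 0.87 without AdWT replicate 1. *Fcgr1*, the high-affinity IgG receptor CD64, went from 105, 87 and 40 counts in AdWT to 93, 122 and 189 in AdKO (log2 fold change 0.81, 95% interval -0.03 to 1.64, unadjusted *P* = 0.0571 by edgeR's quasi-likelihood test). Its log2 fold change was 0.50 without AdWT replicate 3 and 1.12 without AdWT replicate 1.

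*Lyz2*, the lysozyme of macrophages, reached the highest level for its length of the tested genes, 207 CPM per kb of exon, just above *Tyrobp* with 201. It measured 356, 216 and 139 CPM in the AdWT libraries and 271, 289 and 356 CPM in the AdKO libraries, and the groups overlapped (log2 fold change 0.36, 95% interval -0.35 to 1.08). Without AdWT replicate 3 this value was 0.08, without AdKO replicate 3 it was 0.24, and without AdWT replicate 1 it was 0.78. *Lyz1*, the lysozyme of Paneth cells, measured 15.0, 8.30 and 9.95 CPM against 11.7, 7.17 and 9.24 CPM. The coding sequences of *Lyz1* and *Lyz2* are 95.1% identical and their transcripts share a run of 118 bases, so reads could be split between them, and the ratio of *Lyz1* to *Lyz2* varied between 0.0248 and 0.0715. The value of *Lyz1* is therefore uncertain.

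*Mertk* (chr2:128524692-128628630, plus strand), the receptor with which macrophages engulf apoptotic cells, went the other way. Its levels were 40.3, 43.2 and 43.9 CPM in the AdWT libraries and 30.5, 33.1 and 39.96 CPM in the AdKO libraries. Every AdWT library lay above every AdKO library, although AdKO replicate 3 and AdWT replicate 1 nearly met. AdKO stood at 0.814-fold of AdWT (log2 fold change -0.30, SE 0.11, unadjusted *P* = 0.0341 by edgeR's quasi-likelihood test), and leaving out single libraries gave log2 values from -0.41 to -0.22. By the same edgeR test the unadjusted *P* was above 0.05 in 4 of the 6 fits that left out 1 library, at 0.0797 without AdWT replicate 2, 0.0664 without AdWT replicate 3, 0.112 without AdKO replicate 1 and 0.0875 without AdKO replicate 2. It was 0.0888 with library size scaling. *Gas6*, which encodes the ligand that bridges MERTK to dying cells and was not one of the 39, measured 379, 375 and 342 CPM in the AdWT libraries and 442, 479 and 469 CPM in the AdKO libraries. Here every AdKO library lay above every AdWT library (log2 fold change 0.34, SE 0.07, unadjusted *P* = 0.0020 and adjusted *P* = 0.817 by edgeR's quasi-likelihood test).

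The remaining pan-macrophage genes had few counts. *Csf1r*, the receptor on which macrophages depend for survival, has 4 rows, and its highest row held 19, 11 and 6 counts against 12, 24 and 11. *Laptm5*, a lysosomal membrane protein of leukocytes, had 10, 6 and 3 against 6, 12 and 12. Both passed the filter on more AdKO than AdWT libraries (3 against 1 for *Csf1r* and 2 against 1 for *Laptm5*), so a higher level in AdKO was in part a condition of being tested. The 95% interval of the fold change spanned 0.583 to 3.01 for *Csf1r* and 0.697 to 3.59 for *Laptm5*. Without AdWT replicate 3 the log2 fold change was 0.10 in place of 0.41 for *Csf1r* and 0.35 in place of 0.66 for *Laptm5*, and for *Csf1r* it was -0.06 without AdKO replicate 2. Leaving out AdWT replicate 1 gave 0.92 for *Csf1r* and 1.17 for *Laptm5*.

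Of the pan-macrophage genes that were not tested, *Csf1*, the ligand of CSF1R, had 8, 8 and 9 counts against 18, 17 and 8, *Itgam* (CD11b) 5, 7 and 5 against 4, 6 and 13, and *Fcgr3* 3, 5 and 2 against 3, 3 and 1. *Aif1* (IBA1) had 4 counts in AdWT replicate 2 and 0 elsewhere. *Emr1*, which encodes the F4/80 antigen, was listed at 0 in all 6 of its rows, which the other macrophage genes show to be no absence of macrophages. *Cd68* and *Cd14* were not analysed here.

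The resident-like genes varied less between the groups. Of 8, 6 were tested, of which 3 had a higher and 3 a lower level in AdKO, and the median log2 fold change was 0.02. *Mrc1* (chr2:14151041-14253684, plus strand), the mannose receptor CD206, was the most abundant of them with 62.7 CPM per kb of exon. Its levels were 393, 352 and 218 CPM in the AdWT libraries and 362, 495 and 418 CPM in the AdKO libraries, that is, 321 ± 91.7 against 425 ± 67.2 CPM (SD, n = 3). AdWT replicate 3 stood below the other 5 libraries, which overlapped. On the log2 scale the difference was 0.40 (95% interval -0.11 to 0.91), and it was 0.18 without AdWT replicate 3 and 0.58 without AdWT replicate 1.

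*Stab1*, the scavenger receptor stabilin-1, measured 136, 108 and 83.7 CPM in the AdWT libraries and 113, 134 and 127 CPM in the AdKO libraries (log2 fold change 0.19, 95% interval -0.21 to 0.58). This value was 0.02 without AdWT replicate 3 and 0.38 without AdWT replicate 1. *Clec10a* (CD301a), a galactose-type lectin, measured 40.6, 23.8 and 15.6 CPM against 24.7, 37.2 and 25.6 CPM. Its highest and lowest libraries were both AdWT, and the direction turned without AdWT replicate 3, where the log2 fold change was -0.15, and without AdKO replicate 2, where it was -0.09, against 0.13 with all libraries.

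*Cd163* (chr6:124254669-124280545, plus strand) had 41, 42 and 17 counts in the AdWT libraries and 22, 26 and 37 in the AdKO libraries. AdWT replicates 1 and 2 lay above all AdKO libraries and AdWT replicate 3 below them, which gave a log2 fold change of -0.22 (95% interval -1.03 to 0.60). It was -0.52 without AdWT replicate 3 and -0.01 without AdWT replicate 1. *Timd4* (TIM-4), a phosphatidylserine receptor of long-lived resident macrophages, had 53, 58 and 46 counts against 51, 41 and 53. *F13a1*, the A subunit of coagulation factor XIII, had 66, 81 and 47 against 65, 53 and 60. These last 2 genes were among the steadiest of the set, with a 1.30-fold range over the 6 libraries for *Timd4* and 1.54-fold for *F13a1*. *Cd209f* had 3 counts in AdKO replicate 2 and 0 elsewhere, and *Folr2* was not analysed here.

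The lipid-associated genes were tested in 5 of 7 cases, and 4 of the 5 had a higher level in AdKO (median log2 fold change 0.58). *Gpnmb* (chr6:48986517-49020928, plus strand), a glycoprotein of lysosomes and phagosomes in lipid-laden macrophages, measured 505, 274 and 110 CPM in the AdWT libraries and 422, 407 and 784 CPM in the AdKO libraries, or 296 ± 198 against 538 ± 214 CPM (SD, n = 3). The AdWT libraries differed among themselves 4.58-fold and the AdKO libraries 1.93-fold, and AdWT replicate 1 lay above AdKO replicates 1 and 2. Its log2 fold change was 0.86 (SE 0.51, unadjusted *P* = 0.134 by edgeR's quasi-likelihood test), with a 95% interval of the fold change from 0.794 to 4.14. Leaving out AdWT replicate 3 gave a log2 fold change of 0.46, leaving out AdKO replicate 3 gave 0.48, and leaving out AdWT replicate 1 gave 1.48.

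*Itgax* (chr7:135273061-135294171, plus strand) encodes CD11c, the integrin used to sort the macrophages that accumulate in obese fat. Its levels were 88.8, 64.3 and 34.2 CPM in the AdWT libraries and 75.8, 82.2 and 122 CPM in the AdKO libraries. The order of the libraries was the same as for *Gpnmb* at both ends, AdWT replicate 3 lowest and AdKO replicate 3 highest, with AdWT replicate 1 second. On the log2 scale AdKO lay 0.58 above AdWT (95% interval -0.20 to 1.36), or 0.28 without AdWT replicate 3, 0.34 without AdKO replicate 3 and 0.92 without AdWT replicate 1.

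*Cd9* (chr6:125410284-125444809, minus strand), a tetraspanin that marks these cells and is also made by other cells of fat, measured 127, 107 and 88.7 CPM against 124, 138 and 163 CPM. Only AdWT replicate 1 and AdKO replicate 1 crossed, by a small margin. The difference of 0.40 on the log2 scale (SE 0.15, unadjusted *P* = 0.0311 by edgeR's quasi-likelihood test) ranged from 0.27 to 0.53 when single libraries were left out. The tetraspanin *Cd63*, a marker of late endosomes, was flat, with 9.93, 8.48 and 8.62 CPM against 9.06, 8.75 and 8.40 CPM, and the 95% interval of its fold change ran from 0.777 to 1.21.

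*Lgals3* (chr14:47987426-48005835, plus strand), which encodes galectin-3, had 18, 22 and 8 counts in the AdWT libraries and 28, 20 and 42 in the AdKO libraries. After scaling, every AdKO library lay above every AdWT library, with AdKO replicate 2 at 1.32 CPM just above AdWT replicate 2 at 1.31 CPM. AdKO stood 1.89-fold above AdWT (log2 fold change 0.92, SE 0.39, unadjusted *P* = 0.0476 by edgeR's quasi-likelihood test), and the unadjusted *P* by DESeq2 was 0.0738. The gene has 3 rows, and 3 AdKO but 2 AdWT libraries passed the filter, so part of this difference was a condition of being tested. *Spp1* (osteopontin) had a single count, in AdKO replicate 3, and *Trem2* was not analysed here.

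**Figure D2:**
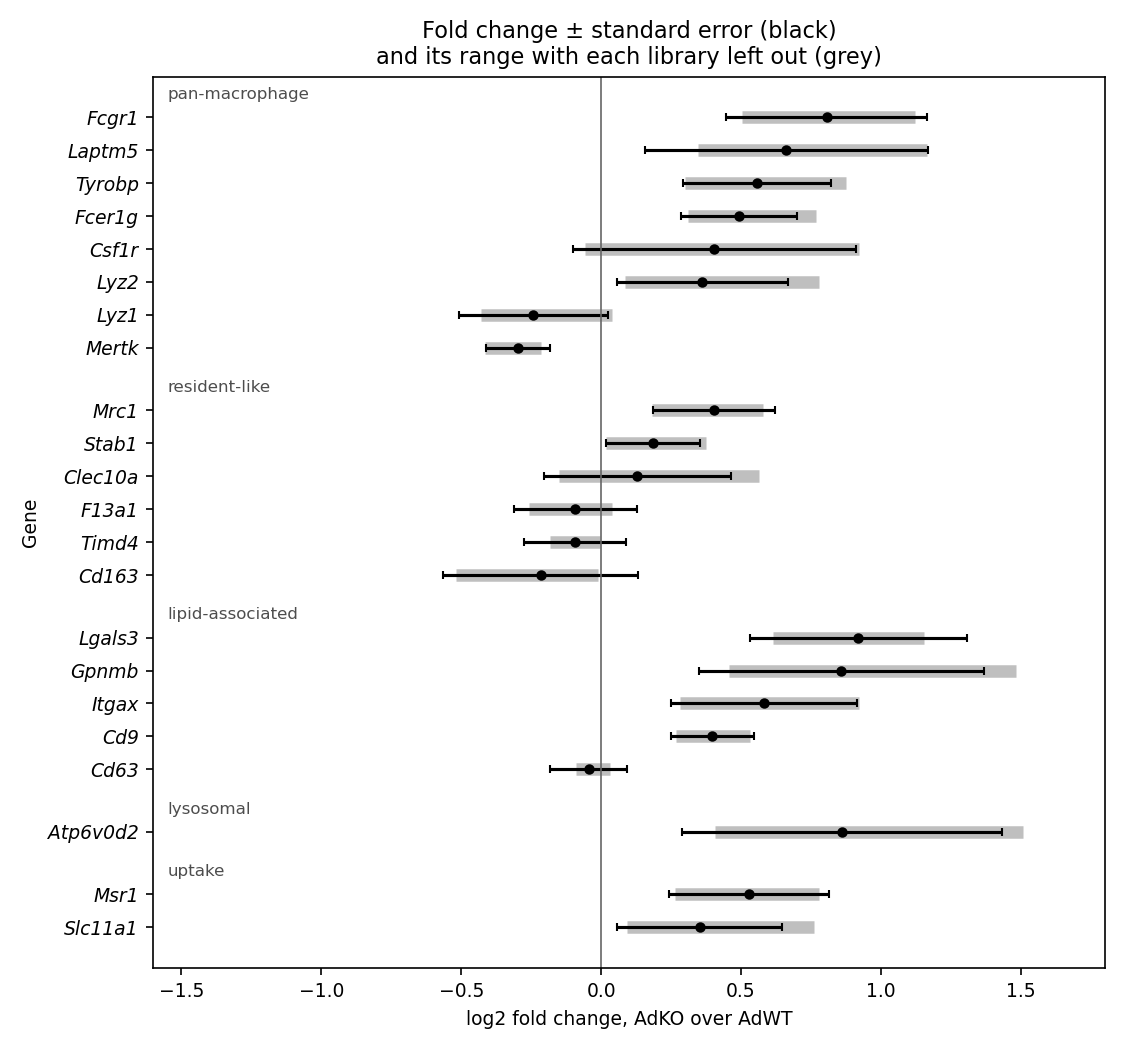
Log2 fold change, AdKO over AdWT, of each tested macrophage gene by role (black point) with its SE (black bar) and the range of that value when any of the 6 libraries was left out (grey bar). *Lgals3*, *Atp6v0d2*, *Gpnmb* and *Fcgr1* lie highest, between 0.81 and 0.92, and the grey bar crosses 0 in *Csf1r*, *Lyz1*, *Clec10a*, *F13a1* and *Cd63*.

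Since *Gpnmb*, *Itgax* and *Mrc1* are the abundant genes by which the lipid-associated and the resident-like state were compared, the 250 bases before their start sites are shown, 5′ to 3′ on the plus strand, from RefSeq on GRCm38.p6, a later build than that of the counts. Capitals mark matches to motifs searched on both strands, of which 3 were tried, after the levels of the genes were known. They were GAGGAA, which reads TTCCTC on the other strand, the core bound by PU.1, the ETS factor of the macrophage lineage, TGACTCA, which reads TGAGTCA on the other strand, the AP-1 site, and CACGTG, the E-box of the MITF and TFE factors that drive lysosomal genes.
*Gpnmb*, chr6:49036268-49036517: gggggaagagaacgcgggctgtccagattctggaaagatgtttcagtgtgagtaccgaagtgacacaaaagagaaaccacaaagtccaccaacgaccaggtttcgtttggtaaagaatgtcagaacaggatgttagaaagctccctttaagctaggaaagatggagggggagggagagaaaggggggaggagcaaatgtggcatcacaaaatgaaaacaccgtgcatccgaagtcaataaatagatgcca
*Itgax*, chr7:128129300-128129549: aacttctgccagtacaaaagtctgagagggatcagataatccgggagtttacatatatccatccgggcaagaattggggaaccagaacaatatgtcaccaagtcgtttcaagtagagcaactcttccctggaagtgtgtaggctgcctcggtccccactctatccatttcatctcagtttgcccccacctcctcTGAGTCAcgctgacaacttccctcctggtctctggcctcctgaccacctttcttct
*Mrc1*, chr2:14229164-14229413: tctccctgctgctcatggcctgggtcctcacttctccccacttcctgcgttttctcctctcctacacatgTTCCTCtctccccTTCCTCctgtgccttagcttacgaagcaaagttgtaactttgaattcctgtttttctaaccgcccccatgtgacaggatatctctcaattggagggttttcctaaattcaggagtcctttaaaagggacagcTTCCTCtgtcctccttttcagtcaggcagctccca
The stretch before *Itgax* holds an AP-1 site that begins 56 bases before the start, which 4.46% of the 32851 promoters of the table hold. *Mrc1* holds the PU.1-type core 3 times, beginning 180, 167 and 35 bases before the start, and 23.3% of all promoters hold it at least once. None of the motifs is in the stretch before *Gpnmb*, and the E-box is in 6.02% of all promoters. Of the 31 macrophage genes with a promoter in the table, 16 held the PU.1-type core, 5 the AP-1 site (*Itgax*, *Cd84*, *Cd68*, *Folr2* and *Cd209f*) and 1 the E-box (*Ctsd*). A gene counted if any of its promoters held the motif, whereas the shares above are per promoter, so the 2 are not in the same unit. Of the 17 tested macrophage genes with a promoter, 7 held the PU.1-type core, 1 the AP-1 site and 0 the E-box. *Atp6v0d2*, *Cd14*, *Clec10a*, *Csf1r*, *Ctsb*, *Emr1*, *Msr1* and *Tyrobp* had no entry. A match describes letters only.

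Of the lysosomal genes, 1 of 5 was tested. *Atp6v0d2* (chr4:19803988-19849752, minus strand), a subunit of the proton pump that acidifies lysosomes and one restricted to macrophages, osteoclasts and few other cells, had the widest range of the set, 9.46-fold over the 6 libraries. Its levels were 104, 60.2 and 16.6 CPM in the AdWT libraries and 77.8, 93.7 and 157 CPM in the AdKO libraries, with the same order at both ends as *Gpnmb*. A log2 fold change of 0.86 had a 95% interval from -0.48 to 2.20. Without AdWT replicate 3 it was 0.41, without AdKO replicate 3 it was 0.51, and without AdWT replicate 1 it was 1.51. *Ctsd*, the protease cathepsin D, had 1 count in AdWT replicate 3 and 1 in AdKO replicate 2, and *Ctsb*, *Ctsk* and *Ctss* were not analysed here.

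Of the genes of uptake, 2 of 4 were tested and both were higher in direction. *Msr1*, the scavenger receptor for modified lipoproteins, had 149, 132 and 67 counts against 126, 166 and 205 (log2 fold change 0.53, 95% interval -0.14 to 1.20). This value was 0.26 without AdWT replicate 3 and 0.78 without AdWT replicate 1. *Slc11a1* (NRAMP1), a metal transporter of phagosomes, measured 116, 68.6 and 47.8 CPM in the AdWT libraries and 87.1, 91.4 and 117 CPM in the AdKO libraries (log2 fold change 0.35, 95% interval -0.34 to 1.04). For *Slc11a1* this value was 0.76 without AdWT replicate 1, 0.09 without AdWT replicate 3 and 0.21 without AdKO replicate 3. For each of the pair, AdWT replicate 1 lay inside the range of the AdKO libraries. *Cd84*, an adhesion receptor of leukocytes, had 9, 4 and 6 counts against 4, 8 and 14 and was not tested, and *Clec7a* was not analysed here.

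The states were then compared per library with scores, each the mean of log2(CPM + 0.5) over its tested genes. The resident-like score (*Mrc1* and *Cd163*) was 5.14, 5.02 and 4.24 in the AdWT libraries and 4.75, 5.05 and 5.08 in the AdKO libraries, a difference of 0.16 between the group means. *Cd163*, with at most 42 counts in a library, weighs as much in this score as *Mrc1*, whose own log2 fold change was 0.40. The lipid-associated score (*Gpnmb* and *Itgax*) was 7.73, 7.06 and 5.95 against 7.49, 7.52 and 8.28, a difference of 0.85. The score of the 8 pan-macrophage genes was 4.43, 3.94 and 3.59 against 4.16, 4.32 and 4.43, a difference of 0.31. In it *Csf1r* and *Laptm5* with their few counts, the uncertain *Lyz1*, and *Mertk*, which was lower in AdKO, weigh as much as the other genes. Without AdWT replicate 3 the difference turned to -0.13 for the resident-like score and was 0.37 for the lipid-associated and 0.12 for the pan-macrophage score. Without AdWT replicate 1 these differences were 0.33, 1.25 and 0.53. In each score AdWT replicate 3 was lowest and AdWT replicate 1 lay inside or above the range of the AdKO libraries.

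The lipid-associated score less the resident-like score was 2.59, 2.04 and 1.71 in the AdWT libraries and 2.73, 2.47 and 3.20 in the AdKO libraries. The means were 2.11 ± 0.44 and 2.80 ± 0.37 (SD, n = 3), and the groups overlapped only in that AdWT replicate 1 lay above AdKO replicate 2. The difference of 0.69 ranged from 0.49 to 0.93 when single libraries were left out. Without both replicates numbered 3, an alternative added after the data were seen, this difference was 0.29 in place of 0.69. The lipid-associated score then differed by 0.11, the resident-like score by -0.18 and the pan-macrophage score by 0.05. The lipid-associated less the pan-macrophage score differed by 0.06 in place of 0.53.

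**Figure D3:**
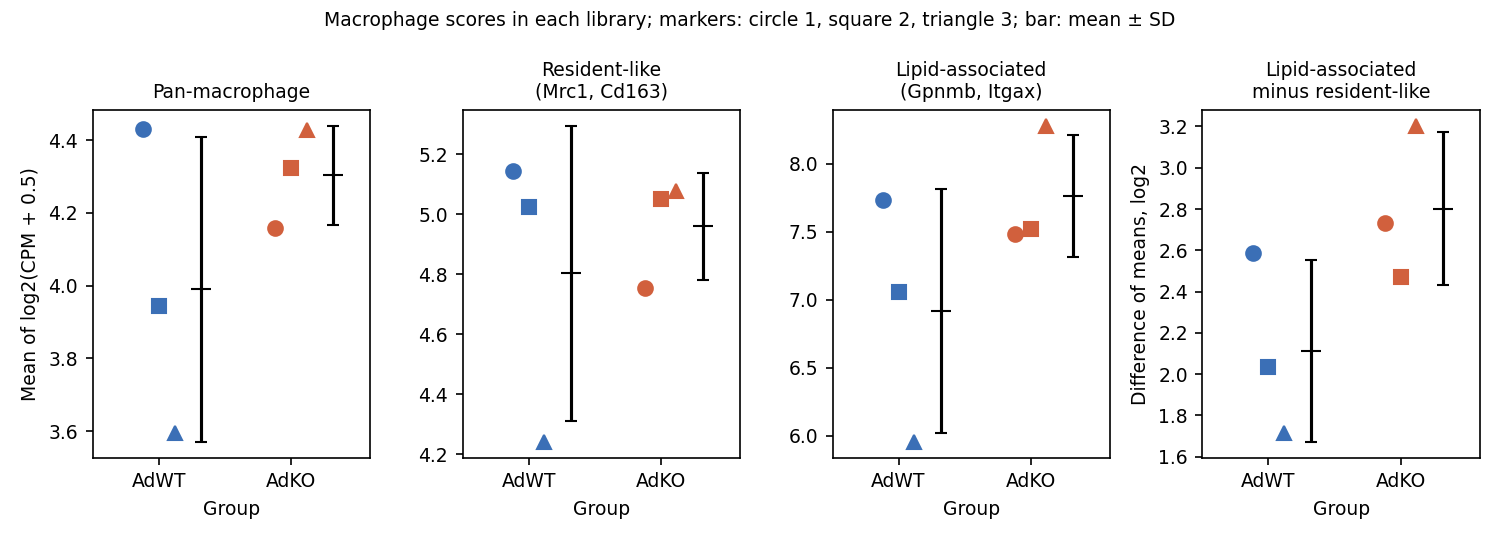
Pan-macrophage, resident-like and lipid-associated score, and the lipid-associated less the resident-like score, in each library. The first 3 are means of log2(CPM + 0.5), each panel has its own axis, points are libraries (circle, square and triangle for replicates 1, 2 and 3), and bars give the mean ± SD of 3 libraries. AdWT replicate 3 is lowest in every panel, and AdKO replicate 3 is highest in the lipid-associated score at 8.28.

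Ratios between genes within a library show which of them kept step. *Lyz2* to *Tyrobp* varied 1.27-fold over the 6 libraries, *Fcer1g* to *Tyrobp* 1.31-fold and *Itgax* to *Tyrobp* 1.31-fold, while *Tyrobp* itself varied 2.73-fold. *Stab1* to *Mrc1* varied 1.43-fold and *Mrc1* to *Tyrobp* 1.45-fold. *Gpnmb* and *Atp6v0d2* did not keep step. The ratio of *Gpnmb* to *Tyrobp* was 3.94, 3.03 and 1.93 in the AdWT libraries and 3.57, 3.08 and 5.04 in the AdKO libraries, and the ratio of *Atp6v0d2* to *Tyrobp* was 0.812, 0.665 and 0.290 against 0.660, 0.709 and 1.01. Both ratios were lowest in AdWT replicate 3 and highest in AdKO replicate 3, so these genes spread further than the pan-macrophage genes in the same libraries. The ratio of *Gpnmb* to *Mrc1* was 1.28, 0.779 and 0.507 against 1.17, 0.821 and 1.88, and its groups overlapped.

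The order of the libraries was shared by many of the macrophage genes. AdWT replicate 1 lay above the mean of the 6 libraries in 21 of the 22 tested genes, AdWT replicate 2 below it in 18 and AdWT replicate 3 below it in 20. The median deviation from that mean was 0.22, -0.18 and -0.69 on the log2 scale in AdWT replicates 1 to 3, and 0.04, 0.18 and 0.35 in AdKO replicates 1 to 3. Over all rows tested the 6 medians lay between -0.00454 and 0.0113. The median SD within a group was 0.41 on the log2 scale for the macrophage genes and 0.20 for all rows, and the median size of the difference between group means was 0.42 and 0.13. In 10 of the 22 genes AdWT replicate 3 was lowest and AdKO replicate 3 highest, as in 4.83% of all rows. These 10 were *Fcgr1*, *Fcer1g*, *Tyrobp*, *Gpnmb*, *Itgax*, *Cd9*, *Lgals3*, *Atp6v0d2*, *Msr1* and *Slc11a1*, and they included none of the 6 resident-like genes. The 4 genes in which another library was lowest were *Mertk*, *Lyz1*, *Timd4* and *Cd63*.

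**Figure D4:**
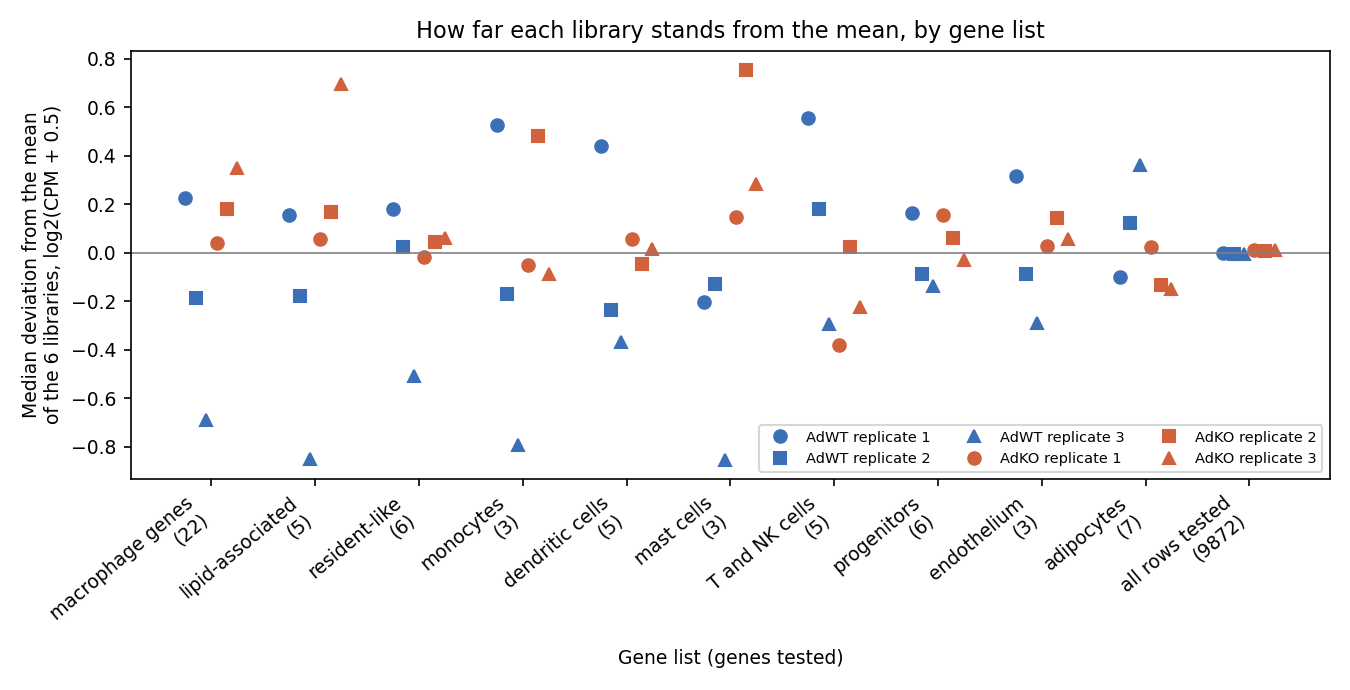
Median deviation of each library from the mean of the 6, on the scale of log2(CPM + 0.5), for lists of macrophage genes, of genes of other cell types and for all rows tested, with the number of genes tested in brackets. AdWT replicate 3 (blue triangle) stands at -0.69 for the macrophage genes, while for all rows the 6 points lie together at 0.

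Other genes of the same pathways were examined as lists. Of 14 further genes of resident macrophages, 11 were tested, of which 9 had a higher and 2 a lower level in AdKO. By edgeR 3 were higher and 1 lower at an unadjusted *P* under 0.05, against 2.76% and 2.98% of all rows. The higher ones included *Gas6* and *Pf4*, a chemokine that resident macrophages make (log2 fold change 0.43, SE 0.11). *Pf4* measured 66.4, 69.1 and 55.6 CPM in the AdWT libraries and 85.5, 94.2 and 77.7 CPM in the AdKO libraries, which did not overlap. The lower one was the fatty acid transporter *Cd36*, which adipocytes and endothelium make as well, with 314, 360 and 213 counts against 149, 163 and 131 (log2 fold change -0.97, SE 0.20). It has 5 rows.

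Of 15 genes of lipid handling, 11 were tested, 6 higher and 5 lower in direction (median log2 fold change 0.03), and *Cd36* was the only one with an unadjusted *P* under 0.05. Of 28 lysosome genes, 15 were tested, 8 higher and 7 lower in direction (median log2 fold change 0.07). Of 12 genes of TREM2 and CSF1R signalling, 3 were tested, 2 higher and 1 lower in direction and none with an unadjusted *P* under 0.05. They included *Csf2ra*, a subunit of the GM-CSF receptor (log2 fold change 0.37, SE 0.20, and 0.19 without AdWT replicate 3 or 0.60 without AdWT replicate 1), and the adaptor *Dok3* (0.14, SE 0.29, with values on both sides of 0 when single libraries were left out). Of 11 transcription factors of macrophages, 5 were tested, 4 higher and 1 lower in direction.

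Of 12 genes of inflammatory activation, 4 were tested and all 4 were higher in direction. *Ccl2*, the chemokine that draws monocytes into tissue, had 211, 212 and 126 counts against 192, 264 and 346 (log2 fold change 0.56, SE 0.23, unadjusted *P* = 0.0463 by edgeR's quasi-likelihood test), or 0.36 without AdWT replicate 3. Of 9 genes of alternative activation, 6 were tested, 4 higher and 2 lower, none with an unadjusted *P* under 0.05. *Retnla* measured between 198 and 306 CPM in the AdWT libraries and between 237 and 322 CPM in the AdKO libraries. Its level in AdWT replicate 3, 306 CPM, was the highest of that group, unlike those of most macrophage genes.

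Levels of other cell types in the same libraries are given beside these results, and their part in them was not tested. Of 8 monocyte genes, 3 were tested, 2 higher and 1 lower in direction and none with an unadjusted *P* under 0.05, and the summed level of the list was between 24.9 and 68.9 CPM in AdWT and between 47.0 and 62.1 CPM in AdKO, with *Vcan* listed at 0. Among them *Ccr2* had 564, 328 and 216 counts against 357, 561 and 472, *Plac8* 306, 220 and 94 against 317, 318 and 232, and *Ly6c2*, the gene that was lower in direction, 185, 93 and 63 against 75, 65 and 79. All 3 were lowest in AdWT replicate 3. Of 9 dendritic cell genes, 5 were tested, 3 higher and 2 lower, with a sum between 92.5 and 153 CPM in AdWT and between 111 and 119 CPM in AdKO. *Siglech* was listed at 0. The summed level of the T and NK cell genes was 35.2 CPM in AdWT replicate 1 and between 13.2 and 20.8 CPM in the other libraries, and that of the B cell genes 11.0 CPM in AdWT replicate 1 and between 1.56 and 6.64 CPM elsewhere. *Cd4*, which T cells and some macrophages carry, had 200, 62 and 55 counts against 43, 40 and 45 (log2 fold change -1.30, and -0.42 without AdWT replicate 1).

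Of 11 adipocyte genes, 7 were tested, 1 higher and 6 lower in direction, with *Lep* the single gene with an unadjusted *P* under 0.05 in edgeR (log2 fold change -0.46, SE 0.16). Their summed level was between 46146 and 54605 CPM in AdWT, highest in AdWT replicate 3, and between 41341 and 42011 CPM in AdKO. The groups did not overlap in this sum, most of which was *Fabp4* (27165 to 34994 CPM over the libraries). Among the single genes they did not overlap in 2, *Lep* and *Fabp4*, both lower in AdKO, against 5.72% of all rows. *Pnpla2* was listed at 0. The progenitor and fibroblast genes summed to between 3714 CPM, in AdWT replicate 3, and 10569 CPM, in AdKO replicate 2. The collagen *Col3a1* alone made up 3195 and 9655 CPM of these sums, and *Lum* 158 and 559 CPM. The other tested genes of the list differed little between these libraries. *Dpp4* measured 15.4 and 16.4 CPM, *Pi16* 73.6 and 76.9 CPM, *Fbn1* 265 and 255 CPM and *Cd34* 6.55 and 7.23 CPM. Skeletal muscle genes summed to between 19.8 and 178 CPM in AdWT and between 6.31 and 7.28 CPM in AdKO, with the highest value in AdWT replicate 2. Of 11 such genes 7 were tested, and all 7 were lower in AdKO at an unadjusted *P* under 0.05 by edgeR (median log2 fold change -3.50), against 2.98% of all rows. In 6 of them the groups did not overlap, as in 5.72% of all rows in that direction. None had an adjusted *P* under 0.05. *Ckm* and *Tcap* passed the filter through the AdWT libraries alone. The 4 with the smallest unadjusted *P* were the calcium pump *Atp2a1* (log2 fold change -5.41, SE 1.24), the troponin *Tnnc2* (-3.50, SE 0.81), the sarcomere protein *Tcap* (-4.89, SE 1.15) and the myosin light chain *Mylpf* (-2.64, SE 0.62). *Atp2a1* had 208, 1214 and 38 counts in the AdWT libraries against 8, 10 and 14 in the AdKO libraries, so the AdWT libraries differed widely among themselves. The part of muscle RNA in the macrophage values was not tested.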

How the data were processed

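RNA from iWAT was sequenced in 3 AdWT and 3 AdKO libraries. Reads were mapped by the authors with HISAT2 to mm9, and the table they deposited holds raw counts without normalization. The counting tool and its annotation are not given in the sources used here, and nothing says how reads shared by rows of a symbol were counted. Where a symbol had several rows, the one with the most counts over all libraries was used. The counts were compared with edgeR 4.0.16 (R 4.3.3) using filterByExpr by group, TMM scaling, glmQLFit and glmQLFTest, with Benjamini-Hochberg adjustment over 9872 rows and a threshold of 0.05. DESeq2 1.42.0 was an alternative, as were other scalings and filters, a robust fit, the replicate block, summed rows and each library left out. Scores used log2(CPM + 0.5). Gene positions and exon lengths came from GENCODE on NCBIM37 (mm9), and promoters from RefSeq on GRCm38.p6. The scripts were tested on simulated data. The members and gene lists were chosen with earlier results of these data known. All members are named. Of other lists, genes with an unadjusted *P* under 0.05 are named, or else the 2 most abundant genes in lists closest to macrophages, at most 4 per list. Some results for single genes are left out. The study describes the 3 libraries of a group as biological replicates.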

Additional observations from a re-analysis of the deposited data

How the results depend on the processing

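None of the macrophage genes had an adjusted *P* under 0.05 in any alternative, and 16 of 22 stayed higher in direction in every scaling. DESeq2 called 27 rows with an adjusted *P* under 0.05 against 0 by edgeR (272 rows higher and 294 lower at an unadjusted *P* under 0.05), and the filter of at least 1 count in any library called 1, as did leaving out both replicates numbered 3. That filter gave 423 rows higher at an unadjusted *P* under 0.05 (2.16% of those tested) and 7 macrophage genes. Library size scaling gave 313 rows higher and 162 lower (65.9% higher, against 48.1%) and 0 macrophage genes lower. Without both replicates numbered 3, 0 macrophage genes were higher at an unadjusted *P* under 0.05, the lipid-associated score differed by 0.108, that score less the pan-macrophage score by 0.0552, and the log2 fold change turned to -0.034 for *Lyz2*, -0.056 for *Clec10a* and -0.044 for *Slc11a1*. The cause of these shifts was not tested. The labels do not say whether the replicate numbers pair the libraries, and correlations of deviations cannot settle it. These were -0.10, -0.12 and 0.35 for same-numbered libraries, and between -0.34 and 0.45 for those with different numbers. With the replicate block 0 macrophage genes were higher and 1 lower at an unadjusted *P* under 0.05, beside 2.10% and 2.14% of all rows.

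With each replicate left out in turn, rows with an adjusted *P* under 0.05 numbered 0 to 1, rows higher at an unadjusted *P* under 0.05 numbered 171 to 735 and rows lower 158 to 473. The macrophage genes numbered 0 to 12 higher and 0 to 1 lower at that threshold and 14 to 18 higher in direction, with a median log2 fold change of 0.14 to 0.76. The score differences lay between 0.12 and 0.53 (pan-macrophage), -0.13 and 0.33 (resident-like), 0.37 and 1.25 (lipid-associated), 0.49 and 0.93 (lipid-associated less resident-like) and 0.25 and 0.72 (lipid-associated less pan-macrophage). The log2 fold change crossed 0 for *Csf1r* (-0.057 to 0.92), *Lyz1* (-0.43 to 0.037), *Clec10a* (-0.15 to 0.56), *F13a1* (-0.26 to 0.041), *Cd63* (-0.091 to 0.032), *Retnla* (-0.075 to 0.22) and *Dok3* (-0.053 to 0.36). *Csf1r*, *Laptm5*, *Lgals3* and *Cd163* had at most 42 counts in a library, in rows of symbols with several rows, so their values carry more counting error than those of the other tested macrophage genes, and why the counts are low was not tested.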

Other observations

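Mast cell genes were the list of other immune cells with the clearest separation. Of 7, 3 were tested, and in all 3 every AdKO library lay above every AdWT library, which was the case for 6.16% of all rows tested. All 3 were lowest in AdWT replicate 3, as most macrophage genes were. The carboxypeptidase *Cpa3* had 280, 301 and 170 counts against 313, 609 and 429 (log2 fold change 0.87, SE 0.27, and 0.57 without AdKO replicate 2), the protease *Mcpt4* 529, 629 and 302 against 763, 1057 and 830 (0.89, SE 0.24), and the tryptase *Tpsb2* 648, 751 and 440 against 788, 1136 and 993 (0.69, SE 0.18). Their adjusted *P* by edgeR's quasi-likelihood test was 0.837 or higher, and *Kit* and *Fcer1a* had at most 3 counts in a library.

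*Ltf*, the lactoferrin of neutrophil granules and of glands, reached 481 counts in AdKO replicate 3 while the remaining libraries had 2 to 18, and its log2 fold change of 4.32 fell to 0.11 with AdKO replicate 3 left out, while *S100a8*, another neutrophil gene, had 330 counts there and between 229 and 557 elsewhere.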
